A study of Zea mays with 2 samples.

Results

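The 60S ribosomal protein genes of maize are described here in leaf RNA from plants treated with a seaweed extract and from control plants. A gene was a member if the family description deposited with it contained the words 60S ribosomal protein, unless the description also named the 40S subunit, the chloroplast or the mitochondrion. GRMZM2G069594, annotated as L38, was named in the rule itself and also meets it. The rule took 178 of the 39634 genes listed, and 136 of them reached 1 FPKM (fragments per kilobase, a level corrected for gene length and library size) in either library, here called measured.

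Both libraries came from leaf tissue of Zea mays, cultivar Sugar 75, collected at V5, a vegetative stage named by counting leaves. The treated library and the control library are each 1 pool of 3 independent samples, analysed with 2 technical replicates. How these entered the values, and whether both pools were under the drought that the series title names, the sources used here do not give. The label of the treated library calls it only a sample, and the series text says that 1 library is treated and 1 is control. As each group is 1 library, nothing checks a difference against replicates and no test was possible, so every comparison describes these 2 libraries. The 95% intervals printed are those deposited with each value, and they cover the quantification of 1 library, not the spread between plants.

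The cytosolic ribosome of plants translates the mRNAs that are copied from nuclear genes. Its large subunit joins amino acids at the peptidyl transferase centre, which is built of ribosomal RNA, and its proteins fold and hold that RNA, line the tunnel through which the new protein leaves, and dock translation factors at a flexible stalk. Each protein is needed once per ribosome, and plants usually carry several gene copies for each. Chloroplasts and mitochondria have ribosomes of their own, of a bacterial type, and many of their proteins are also encoded in the nucleus.

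The 60S genes were higher in the treated leaf library by a similar, modest factor across nearly all protein families. Their summed level was 2182 FPKM in treated leaves and 1457 FPKM in control leaves, which was 0.949% of the summed FPKM of all genes in treated leaves and 0.623% in control leaves. The median measured member had a log2 ratio, log2((treated FPKM + 1)/(control FPKM + 1)), of 0.53 with quartiles of 0.38 and 0.72, beside a median of 0.22 with quartiles of -0.04 and 0.46 over the 16272 genes measured. A log2 ratio above 0 was found for 126 of the 136 measured members, beside 71.4% of all measured genes, and 119 of 136 lay above the median gene, beside 50% of all genes by construction. The median gene also had a ratio above 0, so the members were also read after centring. Centring divided the treated values by the median plain ratio of the genes at 1 FPKM or more in both libraries. That left a median of 0.29 for the members, beside 0.01 for all measured genes. In bulk leaf RNA, a change in the share of cells of 1 type and a change in RNA per cell cannot be told apart.

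**Figure D1:**
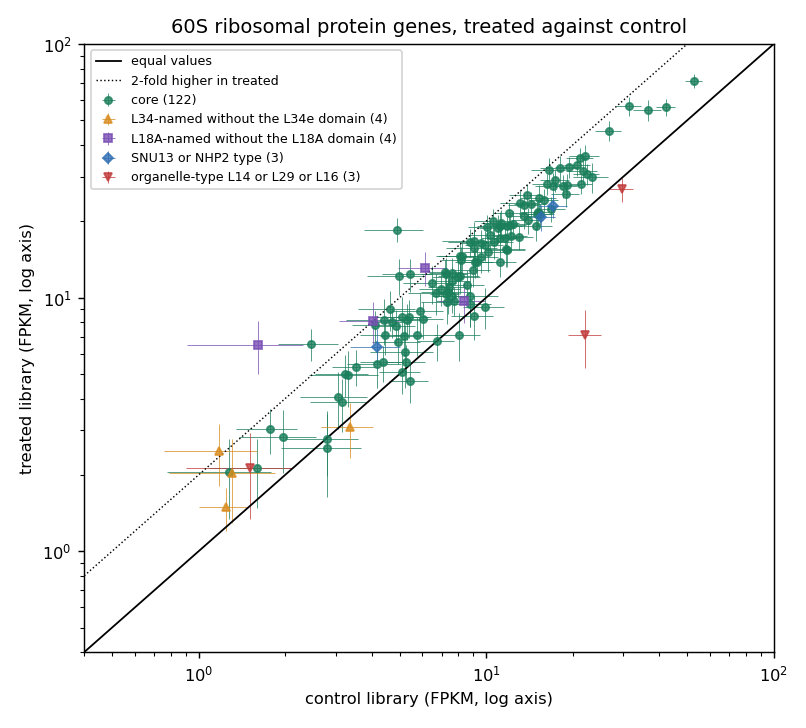
FPKM of the 136 measured 60S members in the treated library (vertical log axis) against the control library (horizontal log axis), with the deposited 95% intervals as bars. Most points lie between the line of equal values and the dotted line of 2-fold higher in treated, and the organelle-type gene GRMZM2G454085 lies far below at 7.11 FPKM in the treated and 22.1 FPKM in the control library.

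The size of the difference was small for most members. By a log2 ratio of at least 1, 5 of 136 members (3.68%) were higher in the treated library, which is near the 3.71% of all measured genes, and 1 was lower, beside 2.52%. By a difference of at least 1.5-fold on the same scale, 53 members (38.97%) were higher, beside 16.6% of all measured genes, and 1 was lower, beside 5.67%. After centring, 2 members were higher by at least 1, beside 2.04% of all genes. By 1.5-fold 12 members (8.82%) were then higher, beside 7.44% of all genes, and 1 was lower, beside 8.96%, so at this size the higher share was near that of all genes once centred. Between a log2 ratio of 0 and 1 lay 121 of the 136 members. The deposited intervals did not overlap for 95 members (69.9%) on the higher side, beside 28.6% of all measured genes, and for 1 on the lower side, beside 8.76%. After centring they were apart for 49 members on the higher side, beside 13.5% of all genes, and for 2 on the lower side, beside 16.2%. Interval width depends on level, and where either library had 10 FPKM or more, 77 of 88 members were apart on the higher side, beside 51.9% of the 4041 genes at that level.

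**Figure D2:**
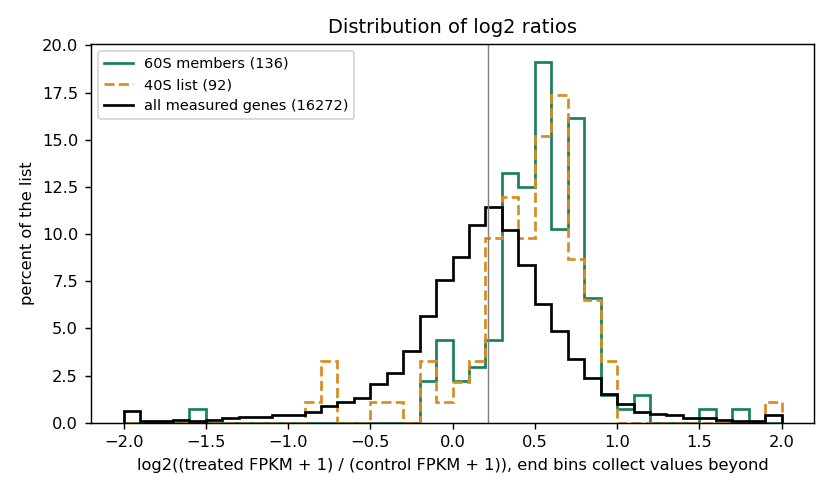
Share of each list (vertical axis, percent) by log2 ratio of treated over control (horizontal axis, FPKM + 1, bins of 0.1, end bins collect values beyond) for the 136 60S members, the 92 measured 40S genes and all 16272 measured genes; the grey line marks the median of all genes at 0.22. The 60S members form a narrow peak to the right of that line, with quartiles of 0.38 and 0.72.

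The spread among members was also narrower than among genes at large, with an interquartile range of 0.34 on the log2 scale for the members and 0.50 for all measured genes. The order of the genes by level was nearly the same in both libraries, with a Spearman rho of 0.95 between treated and control FPKM over the 122 measured members of the core class defined below, across genes that are not independent. Low members had smaller log2 ratios on this scale, which the added 1 FPKM lowers at low levels. The median was 0.34 for the 20 members with a mean under 5 FPKM, 0.51 for the 43 between 5 and 10, 0.61 for the 48 between 10 and 20 and 0.58 for the 25 above 20, and the matching medians of all genes were 0.19, 0.25, 0.29 and 0.23. Without the added 1 FPKM the members' medians in the same order were 0.51, 0.57, 0.64 and 0.61. The members sit on all 10 nuclear chromosomes, with chromosome medians between 0.46 on chromosome 10 and 0.77 on chromosome 3, and medians of all genes between 0.21 and 0.23.

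Of the 42 members below 1 FPKM in both libraries, 26 were listed at 0 in both, and 4 were at 0 in exactly 1 library, each under 1 FPKM in the other. The 2 members on the plastid chromosome, annotated rpl14 (GRMZM5G804776) and rpl16 (GRMZM5G853305), were among those listed at 0. Their status was OK in both libraries, and the reason for an exact 0 was not tested. Near-identical copies can exchange reads, and 24 members share a reference gene number with another member, while 5 overlap another listed locus. Without these genes the 111 remaining measured members had a median log2 ratio of 0.54.

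The annotation did not support the label for every member, since the family descriptions also cover relatives of other ribosomes and complexes. Setting those relatives apart left 152 members (122 measured) here called core, with a median of 0.54, of which 7 (3 measured) have no protein domain listed and were kept by their description. Set apart were 12 genes described as L34 with no L34e domain listed and 5 described as L18A with no L18A domain listed. Also set apart were 4 of the SNU13 or NHP2 type, which are RNA-binding relatives of ribosomal proteins found in small nucleolar and spliceosomal particles. The last 5 are here called organelle-type by their family description, though the description L14/L17/L23 names no organelle. The L34-named group reached no more than 3.35 FPKM and had a median of 0.27 over 4 measured genes. The 3 measured SNU13 or NHP2 genes had a median of 0.41. These classes were drawn after the values had been seen.

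Of the 3 measured organelle-type genes 2 were lower in treated leaves and 1 was higher. Their sum, which rests mostly on the first 2, was 35.97 FPKM in treated leaves and 53.2 FPKM in control leaves. GRMZM2G454085 (chromosome 3, 194051477 to 194052195) is described as L14/L17/L23, like the plastid gene rpl14. Its listed domain is also that of the core L14/L23 genes, so its placing as organelle-type is uncertain. The gene had 7.11 FPKM (95% interval 5.29 to 8.92) in treated leaves and 22.1 FPKM (19.2 to 25.004) in control leaves. Its log2 ratio of -1.51 made it the only member lower by at least 1, and its intervals did not overlap. GRMZM2G028216 (rpl29, chromosome 4), annotated as the chloroplast L29 protein, had 26.7 FPKM (23.9 to 29.6) in treated leaves and 29.6 FPKM (26.8 to 32.4) in control leaves, and its intervals overlapped. GRMZM2G159554, described as L35/L29, had 2.13 FPKM (1.34 to 2.92) in treated leaves and 1.51 FPKM (0.90 to 2.11) in control leaves, a log2 ratio of 0.32 with overlapping intervals. In the authors' deposited table GRMZM2G454085 is listed as lower, with a log2 fold change of -1.86, a p-value of 0.0023 and a q-value of 0.179, and is marked as not significant. That test sets 1 library against another and says nothing of the spread within a condition. The authors' fold changes need not share the scaling used here. Without the added 1 FPKM and before centring, the log2 ratio of GRMZM2G454085 was -1.64. The authors' deposited table of higher genes holds 2 of the 178 members, beside 0.959% of all genes, and that of lower genes holds 1, beside 1.59%.

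When the genes with the same L number in their description were summed, all 36 core families were higher in the treated library. Such a family is not always a single protein. L37 pools genes with different listed domains, and the only L15/L27 gene lists the same domain as L27A but counts as its own family. Ratios of summed FPKM lay between 1.19 for L3 and 1.97 for L38, with a median of 1.57 and quartiles of 1.42 and 1.65. At or past 1.5-fold were 22 families, and none reached 2-fold. In 35 of the 36 families the intervals of the sums, before centring, did not overlap. For these the deposited half-widths of the copies were combined as the root of their summed squares, as if errors were independent. Near-identical copies can exchange reads, so independence is an assumption, and adding the bounds directly would give wider intervals. After centring on the median gene 35 of the 36 were still higher, with a median ratio of 1.30, and L3 was at 0.992. The intervals of the sums were not compared after centring, and no share was computed for sums of other genes. For single members, centring lowered the count with intervals apart on the higher side from 95 to 49.

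**Figure D3:**
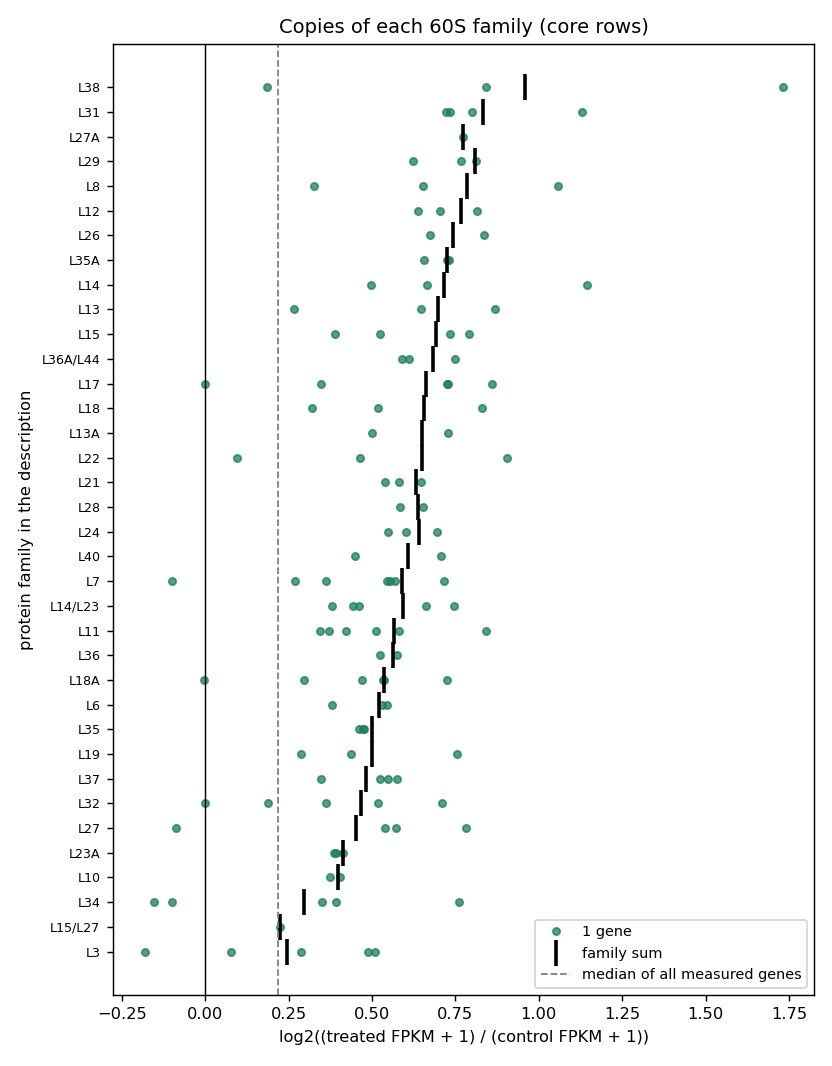
Log2 ratio of treated over control (horizontal axis, FPKM + 1) for each measured core copy (green dots) and for the summed FPKM of its family (black bars), by protein family (vertical axis), from L38 at the top to L3 at the bottom by ratio of summed FPKM. Every family sum lies right of 0, while 7 single copies, of L3, L7, L18A, L27, L32 and L34, lie left of it.

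Proteins close to the peptidyl transferase centre, L3, L8 and L10, had a joint ratio of 1.37. L3, a protein that reaches toward the catalytic site, had a family sum of 26.4 FPKM in treated leaves and 22.1 FPKM in control leaves. Its 5 measured copies lay between -0.18 and 0.51 on the log2 ratio scale, and GRMZM5G801409 was at 4.68 FPKM (3.83 to 5.53) in treated leaves and 5.43 FPKM (4.59 to 6.28) in control leaves. The other 4 share a reference gene number with another member, so their split is uncertain. L10, which lies near the site where tRNAs are bound, was at 84.2 FPKM in treated leaves and 63.6 FPKM in control leaves, with log2 ratios of 0.40 and 0.38 in its 2 measured copies. GRMZM2G027451 (L10, chromosome 1, 247547659 to 247549989) had 56.2 FPKM (52.0 to 60.4) in treated leaves and 42.3 FPKM (39.1 to 45.5) in control leaves, a log2 ratio of 0.40.

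L8, which lies close to the catalytic RNA, was higher by a larger factor, 1.77, at 30.3 FPKM in treated leaves and 17.2 FPKM in control leaves. The copy with the largest ratio was GRMZM2G067456 (chromosome 3, 127004079 to 127006073), at 12.3 FPKM (10.5 to 14.1) in treated leaves and 5.41 FPKM (4.34 to 6.48) in control leaves, with a log2 ratio of 1.06 that was 0.81 after centring. GRMZM2G077851, the highest L8 copy in both libraries, was at 12.5 FPKM (10.7 to 14.3) in treated leaves and 7.58 FPKM (6.35 to 8.81) in control leaves, a log2 ratio of 0.65 with intervals apart. The copy GRMZM2G072729 was at 5.48 FPKM (4.41 to 6.56) in treated leaves and 4.17 FPKM (3.29 to 5.05) in control leaves, with overlapping intervals.

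The exit tunnel proteins L17, L19, L23A, L26, L31 and L35 had a joint ratio of 1.51 over 20 measured copies. L31, which sits at the rim of the tunnel, was at 71.1 FPKM in treated leaves and 39.5 FPKM in control leaves, and its 4 copies had log2 ratios between 0.72 and 1.13. Its low copy GRMZM2G011253, outside the naming rule and named after its values were seen, had 6.58 FPKM (5.61 to 7.55) in treated leaves and 2.46 FPKM (1.88 to 3.04) in control leaves, a log2 ratio of 1.13 that was 0.90 after centring. L19 holds the most abundant member, GRMZM2G116135 (chromosome 3, 220506758 to 220509488), at 71.6 FPKM (66.8 to 76.5) in treated leaves and 52.7 FPKM (49.0 to 56.4) in control leaves, a log2 ratio of 0.44. The L19 copy GRMZM2G146358 had 13.8 FPKM (12.0 to 15.7) in treated leaves and 11.2 FPKM (9.68 to 12.7) in control leaves, and these intervals overlapped.

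L17 copies spread more widely, with log2 ratios between 0.00 and 0.86. GRMZM2G702426 (L17) had 19.0 FPKM (16.9 to 21.1) in treated leaves and 10.05 FPKM (8.66 to 11.4) in control leaves, while GRMZM2G119169 (L17) had 11.2 FPKM (9.59 to 12.8) in treated leaves and 8.59 FPKM (7.37 to 9.81) in control leaves. The 3 measured copies of L23A, a docking site for factors at the tunnel exit, had log2 ratios between 0.39 and 0.41, and those of L35 between 0.46 and 0.48.

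Proteins at the subunit interface, which form bridges to the small subunit, had a joint ratio of 1.54. GRMZM2G150058 (L14/L23, chromosome 9, 152047932 to 152050310) had 45.5 FPKM (41.4 to 49.5) in treated leaves and 26.7 FPKM (24.0 to 29.5) in control leaves, a log2 ratio of 0.74. It shares a reference gene number with another member. GRMZM2G142640 (L24, chromosome 8) had 36.3 FPKM (32.6 to 39.97) in treated leaves and 22.0 FPKM (19.4 to 24.6) in control leaves, a log2 ratio of 0.70. Intervals of both genes were apart.

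The stalk base protein L12 had a sum of 49.1 FPKM in treated leaves and 28.4 FPKM in control leaves, with its 3 measured copies at log2 ratios between 0.64 and 0.82. The acidic stalk proteins themselves are described as 60S acidic ribosomal proteins, which the member rule leaves out. Of 15 such genes 11 were measured, all 11 with a log2 ratio above 0 and with a median of 0.48. GRMZM2G119809 of that group had 11.9 FPKM (9.98 to 13.9) in treated leaves and 6.05 FPKM (4.80 to 7.29) in control leaves, and GRMZM2G105712 had 13.0 FPKM (11.2 to 14.8) in treated leaves and 7.06 FPKM (5.93 to 8.18) in control leaves.

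L11 binds the 5S ribosomal RNA and has the most gene copies of any core family, 11, of which 6 were measured. Its sum was 63.8 FPKM in treated leaves and 42.8 FPKM in control leaves. Its highest copy, GRMZM5G813584, was at 19.2 FPKM (16.7 to 21.6) in treated leaves and 14.9 FPKM (13.0 to 16.9) in control leaves, with a log2 ratio of 0.34. GRMZM2G001816 (L11) differed more, at 16.5 FPKM (14.4 to 18.7) in treated leaves and 8.78 FPKM (7.39 to 10.2) in control leaves, a log2 ratio of 0.84. L40, made as a fusion with ubiquitin that is later cut off, was at 56.8 FPKM in treated leaves and 37.0 FPKM in control leaves.

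The 22 other core families had a joint ratio of 1.55, with family ratios between 1.22 and 1.97. L38, a small protein of the subunit surface that in mouse is needed for translation of certain Hox mRNAs, had the highest family ratio at 81.6 FPKM in treated leaves and 41.5 FPKM in control leaves. Its main copy AC190609.3_FG002 (chromosome 4, 194340221 to 194342295) had 57.0 FPKM (52.2 to 61.7) in treated leaves and 31.4 FPKM (28.2 to 34.5) in control leaves. GRMZM2G069594 (L38, chromosome 1, 196439013 to 196441662) had 18.5 FPKM (16.6 to 20.5) in treated leaves and 4.89 FPKM (3.77 to 6.005) in control leaves. That is 3.79-fold higher, with a log2 ratio of 1.73 (1.48 after centring), on this scale the highest of the 136 measured members. Without the added 1 FPKM and before centring, the log2 ratio of GRMZM2G069594 was 1.92, and the authors' value may be scaled otherwise. In the authors' deposited table this gene is listed as higher, with a log2 fold change of 1.59, a p-value of 0.0125 and a q-value of 0.521, and is marked as not significant. The last L38 copy, GRMZM2G046011, had 6.09 FPKM (4.41 to 7.76) in treated leaves and 5.23 FPKM (3.93 to 6.54) in control leaves, with overlapping intervals.

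L22, an RNA-binding protein of the subunit surface, differed unequally among its 3 measured copies. GRMZM2G063617 (chromosome 7, 172711230 to 172713259) was at 31.9 FPKM (28.4 to 35.4) in treated leaves and 16.6 FPKM (14.4 to 18.8) in control leaves, a log2 ratio of 0.90. GRMZM2G134107 (L22) had 9.47 FPKM (7.69 to 11.3) in treated leaves and 8.80 FPKM (7.25 to 10.4) in control leaves. GRMZM2G010991 (L22) had 10.5 FPKM (8.64 to 12.4) in treated leaves and 7.36 FPKM (5.95 to 8.77) in control leaves, a log2 ratio of 0.46, and the intervals of both these copies overlapped between the libraries. L13 had GRMZM2G081102 at 20.1 FPKM (17.8 to 22.4) in treated leaves and 10.6 FPKM (9.10 to 12.0) in control leaves.

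Among the remaining structural proteins of the subunit, GRMZM2G028883 (chromosome 10, 130341341 to 130343237), described as L14 but with no protein domain listed, had 12.2 FPKM (10.3 to 14.2) in treated leaves and 4.98 FPKM (3.84 to 6.12) in control leaves. Its log2 ratio was 1.14 (0.90 after centring). The L14 copy GRMZM2G140116 was closer to the other members, at 21.8 FPKM (19.1 to 24.5) in treated leaves and 15.1 FPKM (13.1 to 17.2) in control leaves. GRMZM5G850966 (L36, chromosome 6) was among the highest members at 55.0 FPKM (49.6 to 60.4) in treated leaves and 36.6 FPKM (32.5 to 40.6) in control leaves. GRMZM2G077991 (L37) had 29.9 FPKM (25.8 to 33.98) in treated leaves and 23.3 FPKM (20.01 to 26.6) in control leaves, with overlapping intervals.

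L32 copies ranged between -0.002 and 0.71 on the log2 ratio scale, and 4 of the 5 share reference gene numbers. GRMZM2G155931 (L32) had 29.1 FPKM (26.1 to 32.1) in treated leaves and 17.4 FPKM (15.4 to 19.4) in control leaves. Both GRMZM2G065868 and AC197246.3_FG003 of the same family had overlapping intervals. GRMZM2G065868 was at 15.5 FPKM (13.2 to 17.7) in treated leaves and 11.8 FPKM (upper bound 13.6) in control leaves, and AC197246.3_FG003 was at 10.2 FPKM (7.63 to 12.7) in treated leaves and 8.80 FPKM (6.65 to 10.9) in control leaves. The log2 ratio of AC197246.3_FG003 was 0.19, and -0.05 after centring.

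Genes described as L18A fell into those with the L18A domain, 6 copies with log2 ratios between -0.01 and 0.72, and 4 measured genes without it, with log2 ratios between 0.20 and 1.53. GRMZM2G022619, with the domain, had 12.8 FPKM (11.0 to 14.6) in treated leaves and 8.98 FPKM (7.63 to 10.3) in control leaves. GRMZM2G022453, without it, had 13.1 FPKM (11.1 to 15.1) in treated leaves and 6.13 FPKM (4.95 to 7.32) in control leaves, a log2 ratio of 0.98. GRMZM2G021877 (chromosome 8, 70455645 to 70457564), also without it, is annotated as a membrane component and was named after its values were seen. It had 6.52 FPKM (4.98 to 8.06) in treated leaves and 1.61 FPKM (0.91 to 2.31) in control leaves. In the authors' deposited table GRMZM2G021877 is listed as higher, with a log2 fold change of 1.69, a p-value of 0.0212 and a q-value of 0.664, and is marked as not significant.

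The make-up of the families by copy was largely kept. Among the 34 families with at least 2 measured copies, the same copy was the highest in both libraries in 27, and the median of the largest shift in a copy's share of its family was 3.84 percentage points. Shifts above 5 points occurred in 11 families. GRMZM2G326066 (L27) held 23.9% of its family (interval 17.9 to 30.9, from the deposited bounds) in treated leaves and 35.4% (27.7 to 43.9) in control leaves. GRMZM2G063617 (L22) held 61.5% in treated leaves and 50.6% in control leaves, and GRMZM2G032564 (L34) 29.95% in treated leaves and 20.8% in control leaves. GRMZM2G069594 (L38) held 22.7% (19.2 to 26.6) in treated leaves and 11.8% (8.4 to 15.7) in control leaves. It was the only one of 120 copies compared whose intervals of the share did not overlap, and in all other shifts named here they did.

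**Figure D4:**
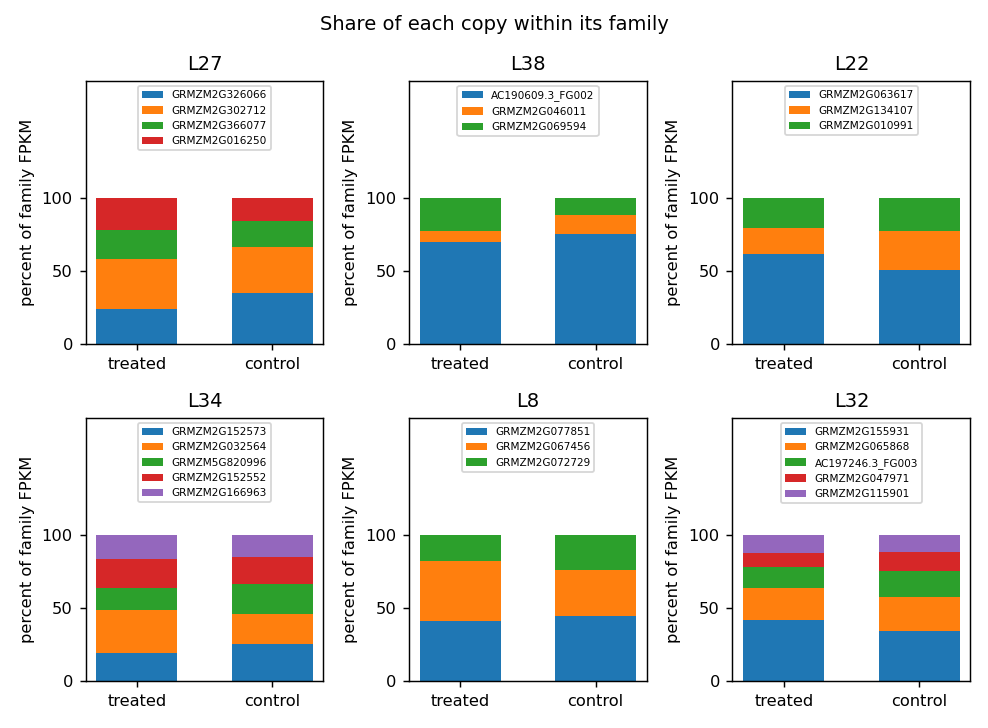
Share of each measured copy in the summed FPKM of its family (vertical axis, percent) in the treated library (left bar) and the control library (right bar), for the 6 families with the largest shift of a copy. GRMZM2G069594 makes up 22.7% of L38 in treated leaves and 11.8% in control leaves, while the main L38 copy holds 69.8% in treated leaves and 75.6% in control leaves.

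The list of the partner subunit, 40S, showed a similar median but not a similar sum. Of 143 genes described as 40S ribosomal proteins, 92 were measured, with a median log2 ratio of 0.52 (0.28 after centring) and 75 of 92 above the median gene. Their summed FPKM was 1818 in treated leaves and 1783 in control leaves, a ratio of 1.02, beside 1.499 for the measured 60S members. The sum weighs abundant genes most, so it does not describe the list as a whole. The 40S genes were not sorted into classes as the 60S genes were, and those that carry the sum were not singled out. By at least 1.5-fold 4 of the 92 genes (4.35%) were lower, beside 5.67% of all genes, with the lowest log2 ratio at -0.82. GRMZM2G305154 (S29) had 12.7 FPKM (11.3 to 14.1) in treated leaves and 6.09 FPKM (5.20 to 6.99) in control leaves, and GRMZM2G078985 (S5) 20.9 FPKM (18.9 to 22.97) in treated leaves and 10.5 FPKM (9.23 to 11.7) in control leaves.

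A further 14 genes encode L4, L5, L30 or L39 but lack the word 60S in their description, and 13 of them were measured with a median of 0.48. GRMZM2G100403 (L4), whose long loop reaches into the exit tunnel, had 17.7 FPKM (15.6 to 19.8) in treated leaves and 9.17 FPKM (8.001 to 10.3) in control leaves. GRMZM2G411764 (L39) had 18.4 FPKM (15.5 to 21.3) in treated leaves and 10.5 FPKM (8.50 to 12.4) in control leaves.

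Genes of the organelle-type 30S and 50S subunits had a lower median than the 60S genes, 0.29 over 123 measured of 181 (0.06 after centring), and their summed FPKM was 0.712 times the control's. They share 2 genes with the 60S list. GRMZM2G013798, described as 30S ribosomal protein S2 of the organelle type, was at 1533 FPKM (1522 to 1543) in treated leaves and 3075 FPKM (3061 to 3089) in control leaves. The list summed to 4318 FPKM in treated leaves and 6069 FPKM in control leaves, so the ratio of the sums rests largely on this gene. GRMZM5G880319, described as mitochondrial S7, had 28.0 FPKM (23.5 to 32.5) in treated leaves and 0.15 FPKM (0 to 0.44) in control leaves.

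Genes that build ribosomes or work with them in translation had medians near that of all genes. The ratio of summed FPKM was 1.23 for the biogenesis list and 1.20 for translation factors, beside 0.983 for all measured genes. The sum over all genes weighs abundant genes most and does not describe the typical gene. The median plain log2 ratio of genes at 1 FPKM or more in both libraries was 0.27. Biogenesis genes were also low, with a control median of 2.74 FPKM beside 8.80 FPKM for the 60S members, and the added 1 FPKM lowers ratios at low levels. Without the added 1 FPKM the biogenesis median was 0.30, beside 0.28 for all measured genes and 0.60 for the 60S members. The ribosome biogenesis list, nucleolar and rRNA processing proteins, had a median of 0.24 over 46 measured of 59 genes (0.03 after centring), with 6 at least 1.5-fold higher (13.0%) and none lower. GRMZM2G016084, described as the rRNA processing protein RRP5, was the only one of them at 10 FPKM or more, with 50.8 FPKM (47.5 to 54.2) in treated leaves and 48.7 FPKM (45.6 to 51.7) in control leaves. Translation initiation and elongation factors had a median of 0.18 over 75 measured of 99 genes, and of -0.06 after centring. Among them GRMZM5G835323 (SUI1), a factor of start codon selection, had 196 FPKM (186 to 206) in treated leaves and 113 FPKM (107 to 120) in control leaves. GRMZM2G039455, described as eIF2C, the older name of the Argonaute proteins of RNA silencing, had 4.80 FPKM (4.20 to 5.41) in treated leaves and 14.1 FPKM (13.1 to 15.1) in control leaves. The list was chosen by the wording of descriptions, so it does not hold translation factors alone.

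**Figure D5:**
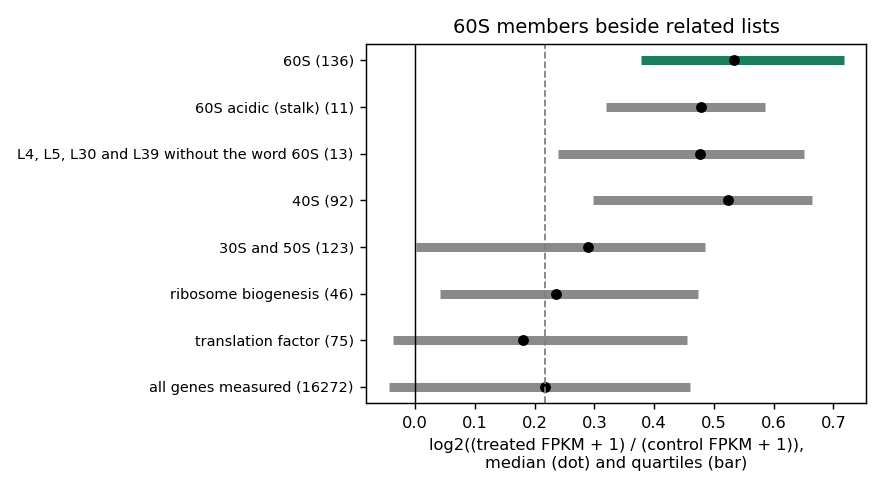
Median (dot) and quartiles (bar) of the log2 ratio of treated over control (horizontal axis, FPKM + 1) for the 60S members and related gene lists (rows, measured genes in brackets); the dashed line is the median of all genes at 0.22. The medians of 60S (0.53), 40S (0.52) and the acidic stalk (0.48) lie right of that of the 30S and 50S list (0.29), biogenesis (0.24) and translation factors (0.18).

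Whole-library values moved beside these results. The treated library listed 15568 genes at 1 FPKM or more and the control 14983, with summed FPKM of 230054 in treated leaves and 233809 in the control. The FPKM worth of a single fragment, read from 2066 low genes, was 1.25 times higher in treated leaves than in control leaves (1.19 and 1.30 at the 5th and 95th percentile), so the treated library was the shallower one. The deposited interval of a member reached a median of 14.2% of the value to the upper side in treated leaves and 15.7% in control leaves. Genes that mark leaf tissue were present in both libraries at unequal levels. Rubisco small subunit genes summed to 190.0 FPKM in treated leaves and 726 FPKM in control leaves, PEP carboxylase genes to 1280 FPKM in treated leaves and 1768 FPKM in control leaves, and PPDK genes to 3345 FPKM in treated leaves and 3754 FPKM in control leaves. FPKM are shares of a library, so less of such abundant genes raises the values of others, and their part in the 60S difference was not tested beyond rescaling. When both libraries were set to the same sum without their 10 highest genes, the median of the 60S members was 0.46 and that of all measured genes 0.16.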

How the data were processed

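Members and lists were chosen with earlier results of these data known. Tools named, per the submitters' processing notes, were Cufflinks 2.2.1, Cuffdiff, Picard 1.115, TopHat2 2.1.0, Bowtie2 2.2.6, and cutadapt 1.8.1, with no role or order stated. The build of the genome is not given in the sources used. Per the file headers, the authors deposited 1 FPKM value per gene and library with the bounds of its interval and a status, which was OK for all members. In 4 further tables the authors list genes of their comparison with the log2 fold change, its p-value and its q-value, as the file headers name them. Their 8 FPKM columns match no label by name and were left out.

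A gene was measured if either library had 1 FPKM or more, and log2((treated + 1)/(control + 1)) was computed with Python 3.11.15 (pandas 2.3.3, numpy 2.4.6), a scale that understates differences of low genes. Sizes counted were a log2 ratio of 1, 1.5-fold, and intervals that do not overlap. FPKM keep no library totals, so relative depth was read from the intervals of low genes, of which 71.3% in the treated library and 71.7% in the control gave whole fragments within 0.01, too few for a count test. Centring shifted plain ratios by the median of the 14279 genes at 1 FPKM or more in both libraries, 0.27 on the log2 scale. The script was tested on simulated data with known changes.

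Named members are the 8 largest and 8 smallest log2 ratios at 10 FPKM or more, the 6 highest means, GRMZM2G069594, and the extreme copies of the 4 families with the widest range of log2 ratios among copies at 10 FPKM or more (families by the L number in the description, so that all genes named L18A count as 1), and no member was at 0 in 1 library and at 1 FPKM or more in the other. Each related list adds the 2 largest absolute log2 ratios at that level. Other copies are named to complete a family, after their values were seen. Of the 178 members 119 carry a reference gene number, and 117 of those are in the RefSeq gene table (Zm-B73-REFERENCE-NAM-5.0), which gave names alone. Coordinates are as deposited. Promoter and protein sequences were not used here.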

Additional observations from a re-analysis of the deposited data

How the results depend on the processing

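The members' median log2 ratio of 0.53 was 0.59 with a pseudocount of 0.1, 0.60 with none, 0.59 at a minimum of 10 FPKM, 0.63 with copies summed per family, 0.46 with libraries rescaled without their 10 highest genes and 0.29 with libraries centred on the median gene. Its distance above the median of all genes was 0.32, and between 0.28 and 0.43 under the alternatives. The 5 members higher by at least 1 were 8 without a pseudocount, 3 at a minimum of 10 FPKM, 2 after centring and 0 of 39 summed families. The 53 members at least 1.5-fold higher were 12 after centring and 23 of 39 as summed families, and 37 of the 39 lay above the median gene. After centring 49 members were higher with intervals apart, beside 13.5% of all genes, and 2 were lower, beside 16.2%. In the core class, an alternative added after seeing the data, no member was lower by any of the 3 sizes (0 of 122), and the log2 ratio of summed FPKM was 0.61, against 0.58 for all members, 0.51 after rescaling and 0.32 after centring. The 40S median was 0.40 without a minimum, 0.60 at 10 FPKM and 0.28 centred. The 30S and 50S median was 0.15 at 10 FPKM and 0.062 centred, that of biogenesis 0.025 centred, where its value of 0.061 at 10 FPKM is that of 1 gene, and that of translation factors turned to -0.057 when centred. Centring took GRMZM2G028883 (0.90), GRMZM2G011253 (0.90) and GRMZM2G067456 (0.81, and 0.98 after rescaling) below a log2 ratio of 1. No paired analysis was possible because each group has 1 library. With 1 pool per group, differences between plants cannot be separated from those between treatments, and the intervals cover quantification only.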
